A study of Mus musculus with 6 samples.

Results

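The heme enzymes studied here are 9 genes, Alas1, Alas2, Alad, Uros, Urod, Cpox, Ppox, Fech and Hmox1, of 19505 genes named on the array. They were chosen by gene symbol, and each is read by 1 probe set, so 9 probe sets of 22206 carry them. Expression was profiled on Affymetrix Clariom S arrays in mouse neutrophil progenitors that are kept immature by HoxB8, after 1 day in a differentiation medium supplemented with stem cell factor (SCF) supernatant. In 3 samples the cells expressed wild-type C/EBPα (WT), and in 3 they expressed the K313 form found in acute myeloid leukaemia (K313). C/EBPα is a transcription factor needed for granulocyte formation. The labels do not say how the forms were introduced, whether a group is a clone or a pool, or whether its replicates were separate cultures. The p-values therefore rest only on how these arrays vary, and that variation could be technical.

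Heme is an iron-containing ring made in steps that begin and end in the mitochondrion. Alas1 in most cells, or Alas2 in red cell precursors, joins glycine to succinyl-CoA. Alad, Uros and Urod build the ring in the cytosol, Cpox and Ppox finish it, and Fech inserts the iron. Hmox1 opens the ring again to biliverdin, carbon monoxide and free iron. In neutrophil precursors heme goes above all into myeloperoxidase and the NADPH oxidase cytochrome, whereas red cell precursors make it for hemoglobin under the control of Gata1.

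The upstream sequences of 3 enzymes and of 1 transporter are shown because Alas1 and Alas2 catalyse the same step under different control, Cpox carries the most matches of the members, and Abcb10 was the member of the mitochondrial list that rose most. Each line is the 250 bases before the RefSeq start in GRCm38.p6, read 5′ to 3′ on the gene's strand. They lie at chr9:106247955-106248204 on the minus strand for Alas1, chrX:150547167-150547416 on the plus strand for Alas2, chr16:58669958-58670207 on the plus strand for Cpox and chr8:123983123-123983372 on the minus strand for Abcb10. Capitals mark matches on either strand to GATAA (GATA factors), CACCC (Krüppel-like factors) or TGCGCANGC (NRF-1).
Alas1: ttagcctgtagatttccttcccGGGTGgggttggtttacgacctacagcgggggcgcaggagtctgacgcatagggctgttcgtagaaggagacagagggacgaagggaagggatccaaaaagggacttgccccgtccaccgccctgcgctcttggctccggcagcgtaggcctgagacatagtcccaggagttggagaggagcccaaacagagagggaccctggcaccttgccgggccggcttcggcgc
Alas2: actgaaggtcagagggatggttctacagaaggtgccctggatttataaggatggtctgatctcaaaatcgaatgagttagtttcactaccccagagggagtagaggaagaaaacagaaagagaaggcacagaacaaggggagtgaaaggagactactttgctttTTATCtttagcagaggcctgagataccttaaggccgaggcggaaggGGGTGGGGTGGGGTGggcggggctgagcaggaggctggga
Cpox: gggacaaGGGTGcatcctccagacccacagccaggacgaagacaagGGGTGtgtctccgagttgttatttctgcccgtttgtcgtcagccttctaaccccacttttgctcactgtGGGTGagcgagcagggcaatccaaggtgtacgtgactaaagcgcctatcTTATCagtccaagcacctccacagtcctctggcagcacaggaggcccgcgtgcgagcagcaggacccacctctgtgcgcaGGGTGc
Abcb10: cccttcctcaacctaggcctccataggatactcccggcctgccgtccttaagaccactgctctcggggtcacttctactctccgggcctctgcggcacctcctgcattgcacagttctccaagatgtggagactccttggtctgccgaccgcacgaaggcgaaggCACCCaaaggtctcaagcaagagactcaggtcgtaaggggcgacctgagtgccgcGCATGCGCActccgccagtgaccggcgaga

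The printed Alas2 stretch held 1 GATAA match, whose leftmost base is 86 before the start, and 3 CACCC matches in a row at 40, 35 and 30. The Alas1 stretch held 0 GATAA matches and 1 CACCC match, and its G and C content was 62.4% against 51.2% for Alas2. Cpox held 1 GATAA match, also at 86, and 4 CACCC matches. Abcb10 held 1 TGCGCANGC match and 1 CACCC match. Windows of 300 bases, from 250 before to 50 after a start, were listed for 7 of the 9 members, 10 windows in all. None was listed for Fech or Hmox1, so these were not searched. GATAA occurred in 3 of the 10 windows (of Alas2, Uros and Cpox) and in 25.4% of all 32851 windows. CACCC was in 6 of the 10, from 5 members, and in 57.5% of all. TTGCNNAA, the core of a C/EBP site, was in 0 of the 10 windows and in 10.8% of all. TGANNNNGC, the antioxidant response core that Nrf2 and Bach1 bind, was in 3 of the 10 windows (of Uros and Cpox) and in 41.3% of all. TGCGCANGC was in 0 of the 10 and in 4.16% of all. A match describes letters and is not a measured site.

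Over the whole array, 1720 of 22206 probe sets (7.75%) passed the limma test at an adjusted p of 0.05. Of these, 838 (3.77% of all) were higher and 882 (3.97% of all) lower in K313. Array medians lay between 5.01 and 5.13 on the log2 scale. Pearson's r over probe sets was 0.994 to 0.996 within groups and 0.983 to 0.989 between them, and WT replicate 3 lay nearest K313 (0.987 to 0.989, against at most 0.986 for the other WT arrays). Hoxb8 was lower in K313 by 4.64 ± 0.25 (SE) on the log2 scale. Cebpa itself read 14.58 ± 0.25 (SD, n = 3) in WT and 14.07 ± 0.33 in K313 (adjusted p = 0.212), and the labels do not say whether the Cebpa and Hoxb8 probe sets see the introduced genes or the cells' own. Arrays have no read depth, and 3 per group limit the precision.

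None of the 9 heme enzymes passed the test. Limma called 0 higher and 0 lower, against 3.77% and 3.97% of all probe sets, and 0 had an unadjusted p under 0.05. The share of all probe sets with such an unadjusted p was not counted, here or for the lists below. Their adjusted p-values ran from 0.466 (Fech) to 0.983 (Alas2), and their median difference, K313 minus WT, was 0.01, against 0.02 over all probe sets. WT and K313 values overlapped in all 9, and they did not overlap in 21.9% of all probe sets. With only 9 probe sets, whether 0 calls or 0 such separations differ from these shares was not tested. The 9 differences lay between -0.15 and 0.27 on the log2 scale, 5 of them above 0 and 4 below, with standard errors of 0.15 to 0.24. Levels of different probe sets are not comparable, so each enzyme is described against itself.

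**Figure D1:**
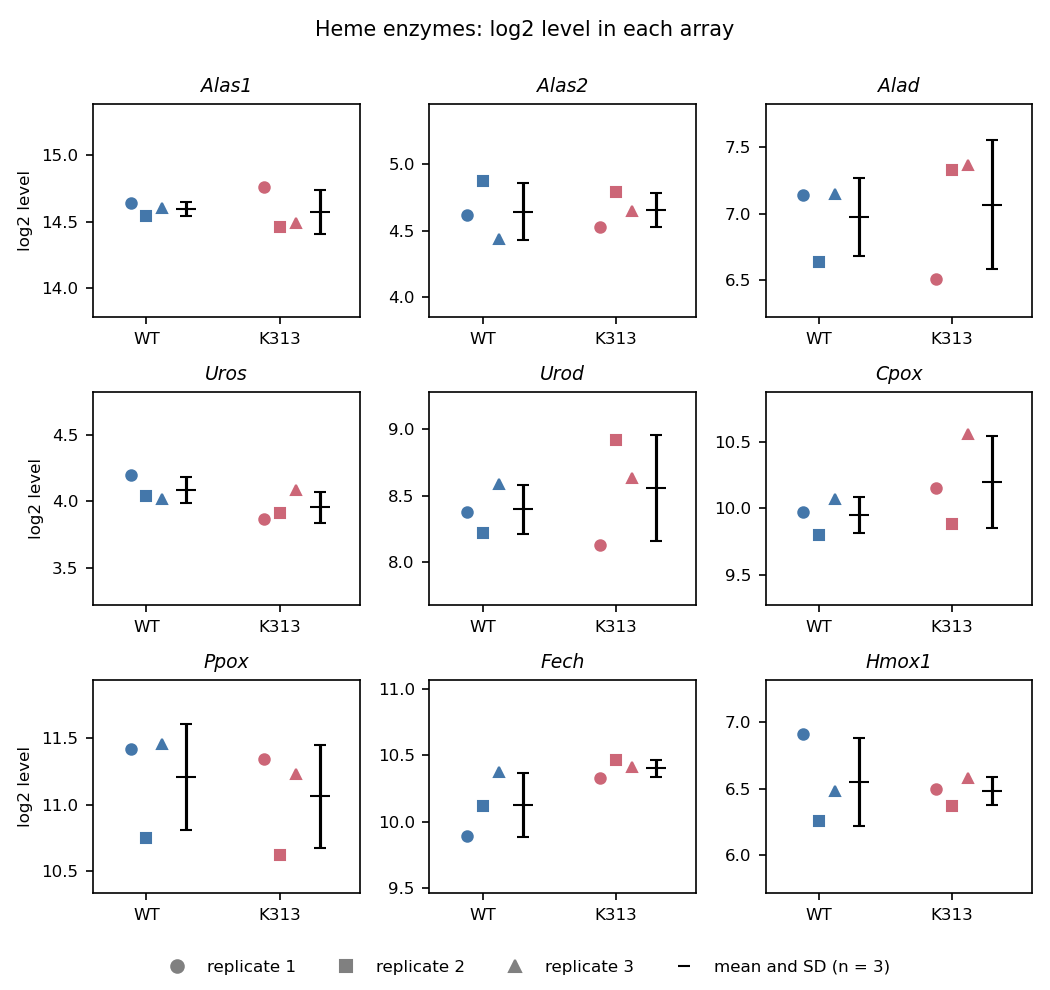
Log2 level of each heme enzyme in the 3 WT (blue) and 3 K313 (red) arrays, with the marker shape giving the replicate number and the black bar the mean with its SD. All vertical axes span the same number of log2 units, and the WT and K313 values overlap in all 9 panels.

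Alas1, the 5-aminolevulinate synthase of most cells and the step that limits heme synthesis, was steady. It read 14.64, 14.54 and 14.60 in WT replicates 1 to 3 and 14.76, 14.46 and 14.49 in K313. The highest and the lowest of the 6 values are both K313 arrays, so the WT values lie inside the K313 range. The difference was -0.02 ± 0.16 (SE, n = 3 per group; adjusted p = 0.968), with a 95% interval before adjustment from -0.37 to 0.32. Its WT values varied least of the 9 enzymes, with an SD of 0.05. Alas2, the isoenzyme of red cell precursors, whose mRNA is held back by iron regulatory proteins when iron is short, read 4.62, 4.87 and 4.44 in WT and 4.53, 4.79 and 4.65 in K313. These levels are below the median of every array, and no detection calls were used, so they cannot be told from background. Its difference of 0.01 ± 0.17 (adjusted p = 0.983) became -0.05 with quantile normalization and -0.06 with a common median.

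Of the cytosolic steps, Alad, which condenses 5-aminolevulinate to porphobilinogen, read 7.14, 6.64 and 7.15 in WT and 6.51, 7.33 and 7.37 in K313. WT replicate 2 and K313 replicate 1 were the low arrays. The difference was 0.09 ± 0.24 (adjusted p = 0.908), and it lay between -0.08 and 0.37 as single arrays were left out; it was 0.37 without K313 replicate 1. Uros, which closes the ring as uroporphyrinogen III, read 4.20, 4.04 and 4.02 in WT and 3.87, 3.91 and 4.09 in K313, at levels that cannot be told from background in either group. Its difference was -0.13 ± 0.15 (adjusted p = 0.758). Urod, which removes carboxyl groups to give coproporphyrinogen, read 8.38, 8.22 and 8.59 in WT and 8.13, 8.92 and 8.63 in K313. K313 held both its lowest and its highest value. The difference was 0.16 ± 0.21 (adjusted p = 0.784).

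Cpox, Ppox and Fech finish the ring and load it with iron. Cpox, the coproporphyrinogen oxidase between the mitochondrial membranes, read 9.97, 9.80 and 10.07 in WT and 10.15, 9.88 and 10.56 in K313. K313 replicate 2 fell inside the WT range and the other K313 arrays above it. The difference was 0.25 ± 0.19 (adjusted p = 0.594) and moved between 0.07, without K313 replicate 3, and 0.41, without K313 replicate 2. Ppox, which oxidises the product to protoporphyrin, read 11.42, 10.75 and 11.46 in WT and 11.34, 10.62 and 11.23 in K313. The array labelled replicate 2 was the low one in each group, and the difference was -0.15 ± 0.24 (adjusted p = 0.838). Fech, the ferrochelatase that puts iron into protoporphyrin, read 9.89, 10.12 and 10.37 in WT and 10.33, 10.46 and 10.41 in K313. WT replicate 3 lay above the lowest K313 array, and the other WT arrays lay below all K313 arrays. Its difference of 0.27 ± 0.17 was the largest of the 9 with all arrays in the fit, with the smallest adjusted p, 0.466 (unadjusted p = 0.132), and reached 0.39 without WT replicate 3.

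Hmox1, the inducible heme oxygenase that breaks heme down, read 6.91, 6.26 and 6.48 in WT and 6.50, 6.37 and 6.58 in K313. The K313 values lay inside the WT range, which WT replicate 1 widened at the top. The difference was -0.07 ± 0.19 (adjusted p = 0.917), and 0.11 without WT replicate 1. Hmox2, the constitutive oxygenase, read 13.88, 13.64 and 13.74 in WT and 13.15, 13.66 and 13.21 in K313, a difference of -0.41 ± 0.18 (adjusted p = 0.251). Blvra, which reduces the biliverdin made by both oxygenases to bilirubin, differed by -0.53 ± 0.20 (adjusted p = 0.174), with all 3 K313 values below the 3 WT values. Of the 6 measured genes on the list of other heme steps (Hmox2, Blvra, Blvrb, Cox10, Cox15 and Hccs), 0 passed the limma test and 3 had an unadjusted p under 0.05. The third, Cox15, named after its values were seen, was higher in K313 (0.59 ± 0.26, adjusted p = 0.254). Its 3 K313 values lay above the 3 WT values. The groups did not overlap in 21.9% of all probe sets.

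What these intervals allow can be given as folds. The 95% intervals of Alas1, Alas2, Uros and Hmox1 lay within 1.5-fold in either direction, and those of all 9 within 2-fold. The widest bounds were 1.6-fold higher for Cpox and 1.6-fold lower for Ppox. For Alas2 and Uros, whose levels are near background, the array compresses folds and the interval says little about the transcript. Within arrays, the log2 distance between Alas1 and Fech, the start and the end of the pathway, was 4.47 ± 0.26 (SD, n = 3) in WT and 4.17 ± 0.23 in K313. That between Alas1 and Hmox1 was 8.04 ± 0.28 and 8.09 ± 0.18. Between Cpox and Ppox it was -1.26 ± 0.27 and -0.87 ± 0.28. The ranges of the Alas1 to Fech and Alas1 to Hmox1 distances overlapped between the groups, and so did that of Cpox to Ppox. These distances were not tested.

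**Figure D2:**
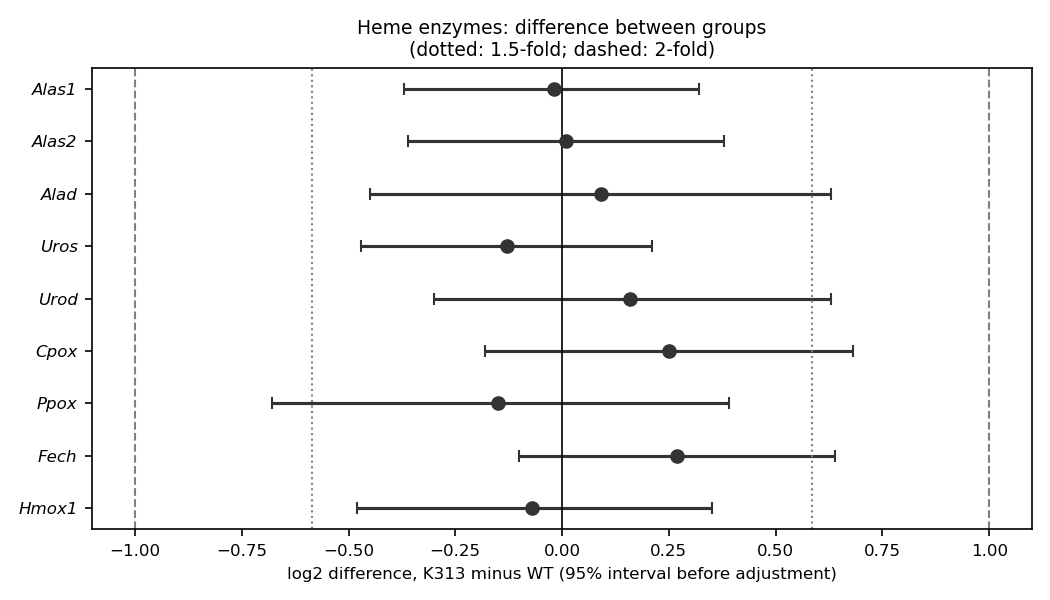
Log2 difference of each heme enzyme, K313 minus WT, with its 95% interval before adjustment; dotted lines mark 1.5-fold and dashed lines 2-fold. All 9 intervals include 0 and stay inside the dashed lines.

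Since no enzyme passed, the 2 with the smallest p were used to look for genes of like pattern. Over the 6 arrays, the probe sets closest to Fech by Pearson's r were Usp54 (0.998), Prp2 (0.988) and Agfg2 (0.988), and those closest to Cpox were Catspere2 (0.991), Fgg (0.985) and Pcsk7 (0.981). None of these 6 passed the test (limma adjusted p = 0.375 to 0.645). Over so few arrays these correlations describe the arrays and no more.

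The mitochondrial list holds transport and cofactor genes that supply the heme enzymes, and others whose proteins work beside them. Of 19 measured, 2 rose, 2 fell and 15 did not pass (21.1% called, against 7.75% of all probe sets). The median difference was 0.24. Abcb10, an inner membrane transporter that stabilises the iron importer mitoferrin-1, rose 4.62-fold. It read 6.45, 7.38 and 7.70 in WT and 9.72, 9.21 and 9.22 in K313 (2.21 ± 0.29, adjusted p = 0.000487). Tspo, an outer membrane protein that binds porphyrins and cholesterol, rose by 0.90 ± 0.19 (adjusted p = 0.0127). Pgrmc1, a heme-binding protein that contacts Fech, read 13.80, 13.68 and 13.69 in WT and 12.61, 12.86 and 12.65 in K313, and fell by 1.02 on the log2 scale (SE 0.15, adjusted p = 0.00134). Slc6a9, the glycine importer that feeds the Alas step in red cell precursors, read 8.68, 8.09 and 7.67 in WT and 7.03, 7.45 and 7.07 in K313 (-0.96 ± 0.24, adjusted p = 0.0332). The Tspo call was lost without WT replicate 3, K313 replicate 2 or K313 replicate 3 (adjusted p = 0.0505 to 0.0616). The Slc6a9 call was lost without replicate 1 or 2 of WT or replicate 1 or 3 of K313 (0.0708 to 0.127) and with array quality weights (0.0544). Chosen for their role after their values were seen, Slc25a38, the glycine carrier of the inner membrane, differed by 0.15 ± 0.21 and Tmem14c, which moves protoporphyrinogen inward, by 0.28 ± 0.17 (adjusted p = 0.809 and 0.446). With each probe set's own variance in place of the moderated one, 17 of the 22 called pathway genes named here and in the next paragraphs lost the call, Abcb10 among them (adjusted p = 0.114); Pgrmc1, Hp, Slc39a8, Gata1 and Lmo2 kept it.

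**Figure D3:**
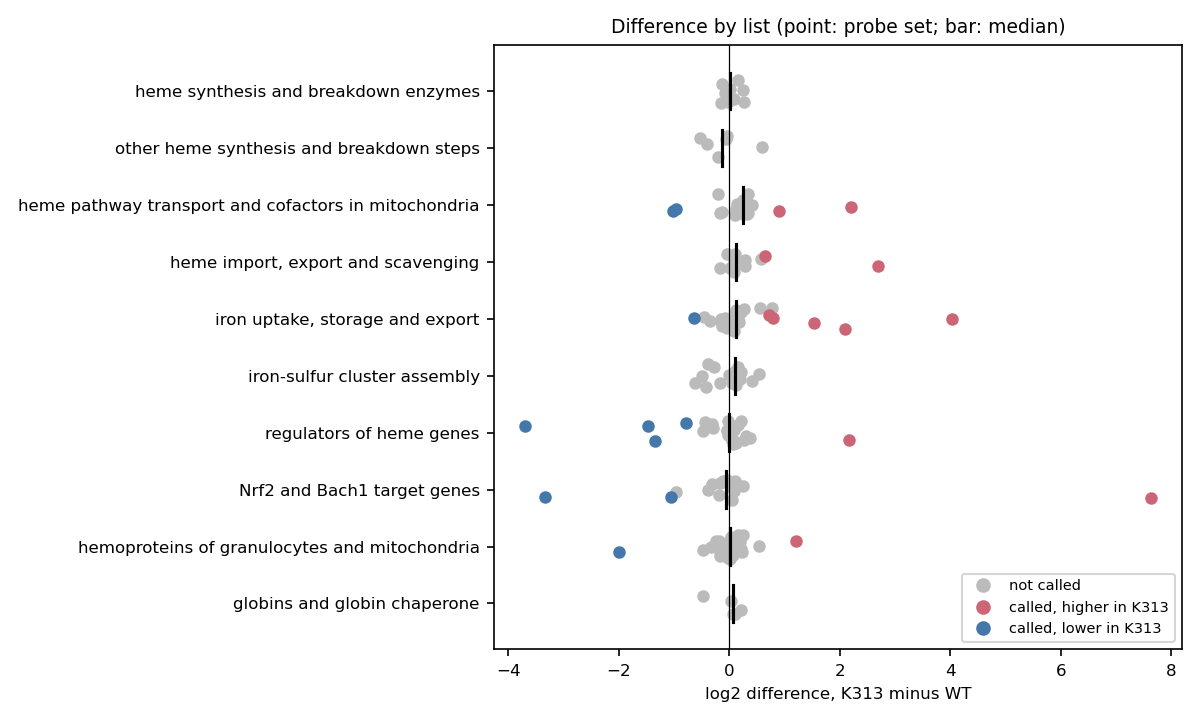
Log2 difference, K313 minus WT, of every measured probe set of the heme enzymes and of 9 related lists; grey points did not pass the test, red points were higher and blue points lower in K313, and the black bar is the median. The 9 heme enzymes lie between -0.15 and 0.27, while Abcb10, Slc39a8, Gata1, Nqo1 and Mgst1 lie beyond 2 log2 units in theirs, as do Lcn2, Hp and Lmo2.

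Of 28 genes of iron uptake, storage and export, 5 rose and 1 fell (21.4%, against 7.75% of all probe sets), and 9 were near background in both groups. The median difference of the 28 was 0.12. Slc39a8, a surface importer of zinc, manganese and iron, rose 16.5-fold, from 4.96, 5.77 and 6.49 in WT to 9.83, 9.63 and 9.89 in K313 (4.04 ± 0.31, adjusted p = 8.26e-06). Hfe, a partner of the transferrin receptor, rose from 7.84, 7.18 and 7.72 to 9.35, 8.89 and 9.12 (1.54 ± 0.21, adjusted p = 0.000569). Mitoferrin-1, Slc25a37, which carries iron into the mitochondrion, rose by 0.79 ± 0.17 (adjusted p = 0.0142). The transferrin receptor Tfrc read 13.58, 13.64 and 13.98 in WT and 14.78, 14.36 and 14.21 in K313 (0.72 ± 0.19, adjusted p = 0.0458). Tfr2, its homologue and an iron sensor, read 10.64, 10.67 and 10.75 in WT and 9.86, 10.10 and 10.17 in K313 (-0.64 ± 0.16, adjusted p = 0.0270). Lcn2, the siderophore-binding granule protein, was the remaining riser (2.09 ± 0.23, adjusted p = 0.000109). The Slc25a37 call was lost without replicate 1 or 2 of WT or replicate 1 or 3 of K313 (adjusted p = 0.0515 to 0.0645). The Tfrc call was lost without replicate 1 or 2 of either group (0.104 to 0.158), with a common median (0.0895) and with array quality weights (0.0532). The Tfr2 call was lost without any 1 of the arrays except K313 replicate 3 (0.0583 to 0.104).

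Of 13 heme import, export and scavenging genes, 2 rose and 0 fell (15.4%, against 7.75% of all probe sets), and 8 were near background in both groups. Flvcr1, described as the heme exporter of the surface membrane, read 10.39, 10.25 and 10.55 in WT and 10.95, 11.26 and 10.90 in K313 (0.64 ± 0.17, adjusted p = 0.0403). All 3 K313 arrays were above all 3 WT arrays, but the call was lost without any 1 of the 6 arrays (0.0562 to 0.175) and with a common median (0.0758). The other riser was haptoglobin, Hp, which binds free hemoglobin (2.69 ± 0.18, adjusted p = 3.91e-06). Of 17 iron-sulfur cluster genes, which make the cofactor carried by Fech, limma called 0, and 5 had an unadjusted p under 0.05. The closest was Nfu1, a late-acting assembly protein (-0.62 ± 0.17, adjusted p = 0.0505), which passed with medians made equal (0.0308), after a low-signal filter (0.0434), with an intensity trend (0.0407) and over 1-symbol probe sets (0.0456). Nubp2, of the cytosolic assembly, differed by 0.53 ± 0.17 (0.0999).

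**Figure D4:**
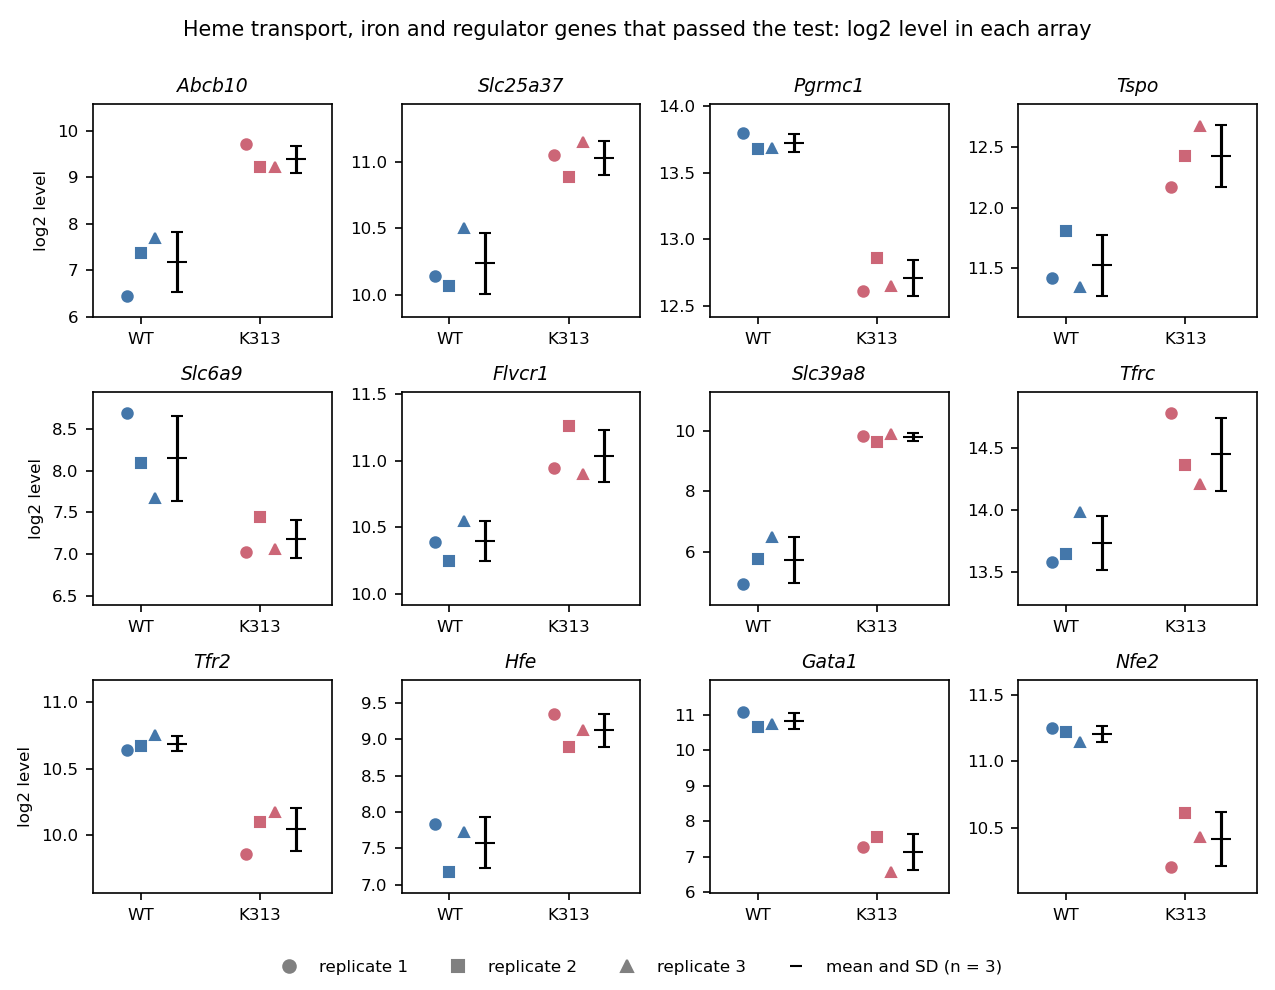
Log2 level in each array of 12 called genes of heme transport, iron handling and heme gene regulation, with WT in blue, K313 in red and the mean with its SD in black. WT and K313 values do not overlap in any panel, but the genes were chosen because they passed the test. The groups did not overlap in 21.9% of all probe sets. WT replicate 3 is the WT value nearest K313 for Abcb10, Slc25a37, Slc6a9, Flvcr1, Slc39a8, Tfrc and Nfe2.

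Regulators of heme genes fell in 4 of 25 and rose in 1 (20%, against 7.75% of all probe sets). Another 4 were near background in both groups. Gata1, which drives Alas2 and the later enzymes in red cell precursors, fell 12.9-fold, from 11.08, 10.66 and 10.73 in WT to 7.27, 7.56 and 6.58 in K313 (-3.69 ± 0.24, adjusted p = 3.31e-06). In bulk samples fewer cells of a type and less RNA per cell cannot be told apart. Its cofactor Zfpm1 changed by -1.34 ± 0.22 (adjusted p = 0.00242), Gata2 by -1.47 ± 0.19 (0.000441) and Nfe2, the erythroid and megakaryocyte partner of small Maf proteins, by -0.79 ± 0.16 (0.0106). Lmo2, an adaptor in the Gata1 complex, rose by 2.17 ± 0.20 (adjusted p = 3.54e-05). The members whose windows held GATAA differed by 0.01 (Alas2), -0.13 (Uros) and 0.25 (Cpox). Alas2 and Uros were near background in both groups, and GATAA occurs in 25.4% of all windows. A link of these members to Gata1 was not tested. Chosen for their role after their values were seen, Bach1, the heme-sensing repressor of Hmox1, differed by -0.30 ± 0.18 and its opponent Nfe2l2 (Nrf2) by -0.04 ± 0.21. Eif2ak1, the kinase that heme deficiency activates, differed by 0.21 ± 0.16, and none of these 3 passed (adjusted p = 0.452, 0.959 and 0.592).

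Hmox1, a standard target of Nrf2 and Bach1, did not pass, and neither did most other targets of the pair. Of 18 others measured, 1 rose, 2 fell and 15 did not pass (16.7% called, against 7.75% of all probe sets). Their median difference was -0.06, and 4 of the 18 were near background in both groups. Nqo1, a quinone reductase, read 10.00, 9.27 and 8.49 in WT and 5.69, 6.44 and 5.63 in K313 (-3.33 ± 0.34, adjusted p = 7.18e-05). Srxn1, which repairs oxidised peroxiredoxins, changed by -1.05 ± 0.22 (0.0118), a call lost without K313 replicate 1 or K313 replicate 2 (0.0549 and 0.0611). Mgst1, the microsomal glutathione transferase, read 5.52, 6.26 and 9.46 in WT, a wide spread, and 14.86, 14.65 and 14.63 in K313. It rose by 7.63 ± 0.75 (5.38e-05), and by 8.82 without WT replicate 3 and 6.85 without WT replicate 1.

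Among 29 genes of proteins that carry heme or work beside them, 1 rose and 1 fell (6.9%, near the 7.75% of all probe sets), and 11 were near background in both groups. Ptgs2, a heme-dependent prostaglandin synthase, changed by -2.00 ± 0.34 (adjusted p = 0.00343) and reached levels near background in K313. Cybb, the heme-bearing NADPH oxidase subunit, rose by 1.20 ± 0.32 (0.0450) from levels near background, a call lost with quantile normalization (0.0510) and without replicate 1 or 3 of WT or replicate 2 or 3 of K313 (0.123 to 0.179). Mpo, the gene of myeloperoxidase, chosen after its values were seen, stood at 18.41 ± 0.08 (SD, n = 3) in WT and 18.42 ± 0.03 in K313 on the log2 scale. The highest value over all probe sets and arrays was 18.59, and whether a rise could be seen at such a level was not tested. Of 5 measured globin genes, limma called 0 (1 with an unadjusted p under 0.05), and 4 were near background in both groups. Hbb-y, an embryonic globin, differed by -0.47 ± 0.19 and Hba-x by 0.11 ± 0.23 (adjusted p = 0.227 and 0.872).

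Marker genes set the cells beside these values, and 7.75% of all probe sets passed the same test. Of 11 granulocyte markers 6 rose and 1 fell. The risers included S100a8 (4.0 ± 0.63, from levels near background) and the granule proteases Elane (3.29 ± 0.28), Ctsg (1.75 ± 0.16) and Prtn3 (0.94 ± 0.17), while Csf3r, the receptor for the granulocyte growth factor, fell (-1.03 ± 0.22). Their mean log2 level was 11.03 to 11.35 in the WT arrays and 12.18 to 12.74 in K313. Of 17 erythroid markers 1 rose (Slc4a1, 0.81 ± 0.17), 1 fell (Car2, -1.69 ± 0.25) and 9 were near background in both groups. Rhag (0.87 ± 0.24, adjusted p = 0.0555) and Ank1 (0.43 ± 0.18, adjusted p = 0.237, near background in both groups) did not pass. The median difference of the 17 was 0.24, and their mean log2 level was 5.16 to 5.27 in WT and 5.07 to 5.50 in K313. Klf1, a defining red cell factor, read 4.50 ± 0.22 (SD, n = 3) in WT and 4.02 ± 0.37 in K313, near background. Of 8 megakaryocyte markers 1 passed as higher (Selp, 1.12 ± 0.21, near background in both groups) and 2 fell (Gp9, -2.68 ± 0.18, and Itga2b, -1.09 ± 0.23), with mean log2 levels of 5.07 to 5.23 in WT and 4.65 to 4.89 in K313. Of 13 macrophage markers, a cell type in which Hmox1 is high, 11 were near background in both groups and 1 fell (Adgre1, -0.78 ± 0.19), with mean log2 levels of 4.12 to 4.31 in WT and 4.11 to 4.31 in K313. Of 12 basophil and mast cell markers 5 fell (Cd200r3, Cma1, Mcpt8, Gata2 and Hdc) and 1 rose (Prss34). Of 6 eosinophil markers 4 fell (Il5ra, Prg2, Prg3 and Siglecf), and of 8 lymphocyte markers 3 (Cd79b, Cd79a and Cd3g, the last near background in both groups). Csf3r, Klf1, Mcpt8 and Hdc were named after their values were seen. Their mean log2 levels were 10.48 to 10.77 in WT and 9.88 to 10.19 in K313 for basophil and mast cell genes, 10.21 to 10.75 and 9.06 to 9.55 for eosinophil genes, and 4.58 to 4.71 and 3.76 to 3.93 for lymphocyte genes. The part of such cells in the Gata1, Gata2 and iron gene values was not tested.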

How the data were processed

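RNA of 6 samples, 3 WT and 3 K313, was read on Affymetrix Mouse Clariom S arrays. The deposited values are log2 levels per probe set, made by the authors with RMA and the Transcriptome Analysis Console, per the submitters' processing notes, with versions not given in the sources used here. RMA brings array distributions close to each other, but medians still ran from 5.01 to 5.13. It also hides changes in total RNA and compresses folds at low levels. Of 22206 probe sets, 19572 have 1 gene symbol in the platform annotation and 2634 none; a mean of at most 5 is called near background.

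limma 3.58.1 (R 4.3.3; lmFit, eBayes) was fitted to all probe sets with the group as the only term, two-sided, with Benjamini-Hochberg adjustment over all and a threshold of 0.05, and was tested on simulated data. Differences are K313 minus WT. Members and lists were chosen with earlier results of these data known. Text names all members, up to 6 called genes by smallest p of each pathway list (2 where none is called) and up to 4 of each marker list; others are marked. Alternatives were quantile normalization, medians made equal, leaving out the 30% of probe sets with the lowest mean, an intensity trend with robust prior, ordinary variance, array quality weights, 1-symbol probe sets, a replicate block and leaving out each array. The labels give no batch, scan dates were not used here, and 0 per-sample columns were left unused.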

Additional observations from a re-analysis of the deposited data

How the results depend on the processing

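The 9 heme enzymes gave 0 calls in either direction under all 14 alternatives, with a smallest adjusted p of 0.303 over all of them. Without 1 array their differences ran from -0.12 to 0.03 for Alas1, -0.09 to 0.13 for Alas2, -0.08 to 0.37 for Alad, -0.20 to -0.07 for Uros, -0.02 to 0.38 for Urod, 0.07 to 0.41 for Cpox, -0.38 to 0.07 for Ppox, 0.15 to 0.39 for Fech and -0.21 to 0.11 for Hmox1, so the sign of Alas1, Alas2, Alad, Urod, Ppox and Hmox1 turned in at least 1 of these fits. Alas2 was also -0.05 with quantile normalization and -0.06 with a common median. A common median lowered all 9 differences, with Fech at 0.20 against 0.27 and Alas1 at -0.10 against -0.02. Hba-x was -0.06 without WT replicate 2, against 0.11.

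With ordinary variance 496 probe sets passed in place of 1720, and only 5 of the 22 called pathway genes named passed in every alternative (Pgrmc1, Hp, Slc39a8, Gata1 and Lmo2). Under ordinary variance the mitochondrial list held 0 higher and 1 lower, import and export 1 higher, iron 1 higher and 0 lower, regulators 1 lower, Nrf2 targets 0 higher and 0 lower, and heme proteins 0 higher and 0 lower. With quantile normalization heme proteins held 0 higher. Array quality weights left 1 lower in the mitochondrial list. A common median left 1 higher in import and export, and it, the low-signal filter, the intensity trend and 1-symbol probe sets each gave 1 lower in the iron-sulfur list. Without 1 array, all calls numbered 1228 to 1465, the mitochondrial list held 1 to 2 higher and 1 to 2 lower, import and export 1 higher, iron 3 to 6 higher and 0 to 1 lower, Nrf2 targets 1 to 3 lower and heme proteins 0 to 1 higher. The cause of these shifts was not tested.

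Replicate numbers did not pair the samples: deviations of same-numbered WT and K313 arrays correlated at -0.061, 0.029 and -0.062. With a replicate block 1546 probe sets passed, 0 of the 9 heme enzymes among them. Import and export then held 1 higher and iron 0 lower, and Flvcr1 (adjusted p = 0.0864), Tfrc (0.0866) and Tfr2 (0.0526) were no longer called. Near background, as for Alas2 and Uros, a change may be too compressed to be seen.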
